A study of Vitis amurensis with 6 samples.

Results

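The enzymes of flavonoid synthesis were followed in leaves of Vitis amurensis, a wild grape of north-east Asia known for its winter hardiness, before and after a short chill. The set was chosen by enzyme class, with earlier results of these data already known. It lists 32 grape gene identifiers for chalcone synthase, chalcone isomerase, the hydroxylases F3H, F3'H and F3'5'H, flavonol synthase, dihydroflavonol reductase (DFR), leucoanthocyanidin dioxygenase (LDOX), leucoanthocyanidin reductase (LAR), anthocyanidin reductase (ANR) and the glucosyltransferase UFGT. Of these, 31 have a row among the 31845 gene identifiers analysed, and the remaining identifier, VIT_214s0068g00930 of chalcone synthase, is not analysed here. The deposited table holds no gene names, so the enzyme given for each identifier follows the list that defines the set and the usual naming of grape genes and was not checked against an annotation. No protein or promoter sequence was used here.

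RNA was sequenced from leaves of wild-type, one-month-old plants grown in vitro. The control group of 3 libraries came from plants at 26 °C, with no cold treatment, and the cold group of 3 libraries from plants held for 2 h at 4 °C. Both groups were grown on medium with the auxin IBA (0.2 mg per litre) in 16 h of light and 8 h of dark, and the chill was given under constant light of about 100 µmol per square metre and second, the light the controls also had. Whether the 3 libraries of a group stem from different plants is not stated, so the spread behind each p-value may be technical only. The hour of sampling is not given either, so the time that passed and the move to the chamber cannot be told apart from temperature.

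Library totals, worked out from the FPKM values (reads per length of gene and library size), ran from 16437001 to 21217704 reads, with the cold libraries all deeper than the controls. The first principal component, with 72.8% of the variance, separated the groups, and the second, with 14.2%, set control library 1 apart at 39.1, while the other controls lay at -16.6 and -22.7. Leaf marker genes could not be checked by name.

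As background, chalcone synthase joins coumaroyl-CoA with malonyl units and so commits carbon to flavonoids, and chalcone isomerase closes the ring. F3H then gives dihydroflavonols, on which F3'H and F3'5'H set the hydroxyl pattern of the B ring and with it the hue of the pigments made later. Flavonol synthase draws dihydroflavonols into flavonols, which absorb ultraviolet light in the leaf surface. DFR leads instead to leucoanthocyanidins, from which LAR makes catechins, while LDOX, ANR and UFGT lead to epicatechins and to coloured anthocyanins.

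After 2 h at 4 °C most transcribed genes of the pathway stood lower, and the largest falls lay at F3'5'H, UFGT, LDOX and the main flavonol synthase gene. A pair of less abundant flavonol synthase genes rose. DFR, both LAR genes, ANR and a chalcone isomerase gene were not called. The test took in genes that averaged 1 FPKM or more over the 6 libraries, which 20 of the 31 members did. Of these 20, 13 were lower and 2 higher after cold (limma-trend on log2(FPKM + 1), adjusted p under 0.05), where 13.4% of all 17155 tested genes were lower and 21.0% higher. At a change of at least 2-fold, 7 members were lower and 2 higher, against 3.05% and 6.60% of all tested genes. The median log2 change was -0.90 over the 20 members and 0.08 over all tested genes. Because earlier results were known when the set was chosen, these contrasts with all tested genes are description only.

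A filter on the mean of all libraries admits some genes through the group in which they are high. This held for 4 members, 3 genes of F3'5'H that averaged under 1 FPKM in cold and a flavonol synthase gene that averaged under 1 FPKM in control. These 3 are among the 7 members lower by at least 2-fold, and the flavonol synthase gene is 1 of the 2 higher. All 4 also enter the median of -0.90, so the 2-fold counts and the median rest partly on the filter. Among the 16 members at 1 FPKM or more in both groups, 10 were lower, 1 was higher and 5 were not called, beside 13.4% lower and 19.4% higher among all genes at this level. Of the 11 members that were not tested, all belong to F3'5'H. The libraries of the groups lay apart for the 15 called members, 13 with cold lower and 2 with cold higher, beside 19.7% and 31.6% of all tested genes, and overlapped for the other 5 members. The 31 genes accounted for 0.112% ± 0.0138 of the library totals implied by FPKM in control and 0.0546% ± 0.00668 in cold (SD, n = 3 each). In RNA from whole leaves, fewer cells that transcribe a gene and less RNA per cell cannot be told apart.

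**Figure D1:**
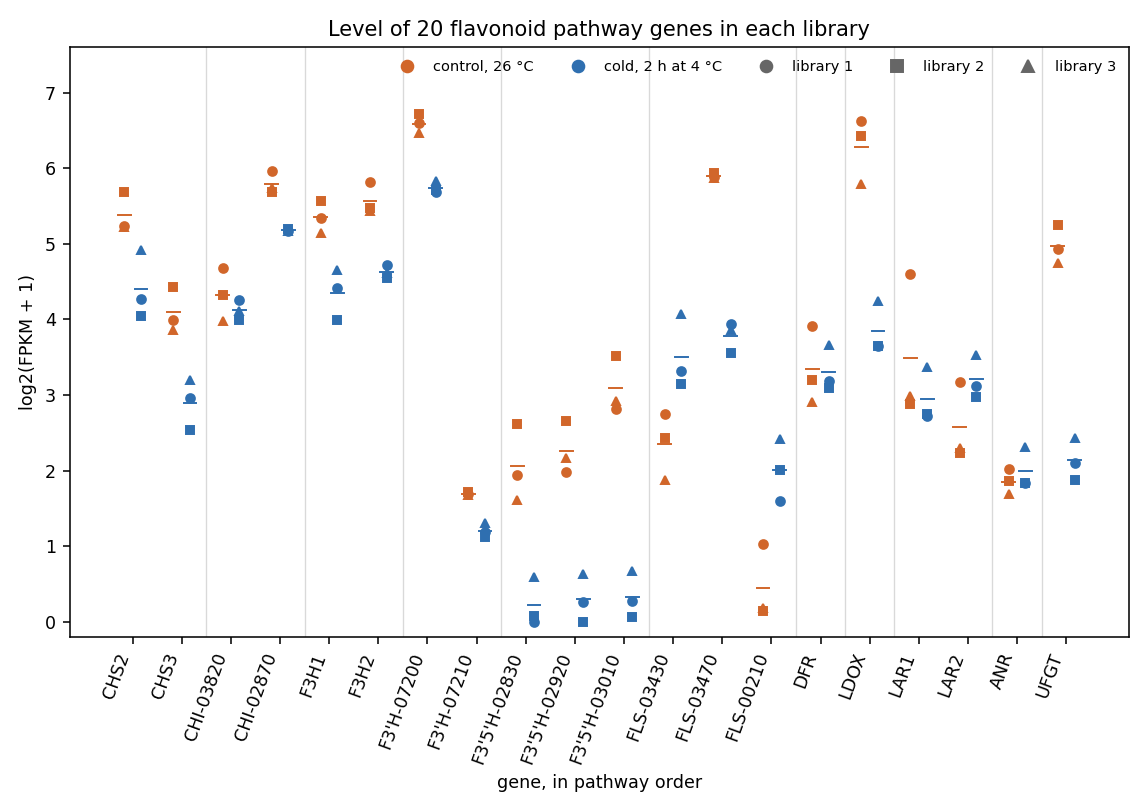
Level of each of the 20 tested genes in each of the 6 libraries, as log2(FPKM + 1), in pathway order; orange points are control libraries, blue points cold libraries, symbols give the library number and bars the group means, and a label such as FLS-03470 ends in the last digits of the identifier. The F3'5'H genes, FLS-03470, LDOX and UFGT show wide gaps between the groups, and the points of DFR, LAR1, LAR2 and ANR mix.

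Both chalcone synthase genes fell. The gene here called CHS2 (VIT_214s0068g00920) measured 36.6, 50.6 and 36.5 FPKM in control libraries 1, 2 and 3 and 18.2, 15.5 and 29.2 FPKM in cold libraries 1, 2 and 3. Every cold value lay below every control value, with the highest cold value in library 3. Its log2 change was -0.98 (SE 0.24, limma-trend, adjusted p = 0.0229). The call was lost without control library 2, cold library 1 or cold library 2, with adjusted p of 0.0707, 0.0762 and 0.0727 (limma-trend). It was also lost with library number as a block (limma-trend, adjusted p = 0.0611). CHS3 (VIT_205s0136g00260) went from 14.9, 20.5 and 13.5 to 6.81, 4.79 and 8.17 FPKM, a log2 change of -1.19 (SE 0.21, limma-trend, adjusted p = 0.0069). The order of the libraries was the same in both genes, with control library 2 highest and control library 3 lowest, and cold library 3 highest and cold library 2 lowest. CHS2 made up 71.8% ± 1.14 (SD, n = 3) of their summed level in control and 75.8% ± 2.71 (SD, n = 3) in cold, and these shares overlapped. The identifier next to CHS2 that is not analysed here is also a chalcone synthase, and the treatment of reads that fit more than 1 close copy is not stated, so the value of CHS2 alone is uncertain.

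Of the chalcone isomerase genes, the more abundant fell and the other was not called, and the difference between them was not tested. The first, VIT_213s0067g02870, stood at 61.2, 50.6 and 52.3 FPKM in control and at 35.1, 35.8 and 35.1 FPKM in cold. The 3 cold values lay within 1.02-fold of each other and below all control values, and the log2 change was -0.61 (SE 0.09, limma-trend, adjusted p = 0.0035). The other, VIT_213s0067g03820, measured 24.7, 19.1 and 14.7 FPKM in control and 18.0, 14.9 and 16.3 FPKM in cold, so the groups overlapped. Its log2 change of -0.21 (95% interval -0.64 to 0.22) was not called (limma-trend, adjusted p = 0.407), and it was -0.03 without control library 1 and -0.39 without control library 3. Summed over both genes, this step kept the largest share of its control level among the steps whose groups did not overlap, 69.7%.

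Both F3H genes, which make dihydroflavonols, fell. F3H1 (VIT_204s0023g03370) went from 39.4, 46.5 and 34.3 to 20.4, 14.9 and 24.1 FPKM, a log2 change of -1.00 (SE 0.19, limma-trend, adjusted p = 0.0084). F3H2 (VIT_218s0001g14310) went from 55.2, 43.3 and 42.2 to 25.5, 22.4 and 23.4 FPKM, a log2 change of -0.95 (SE 0.12, limma-trend, adjusted p = 0.0021). No cold value of either gene reached the control range. Their order within the groups differed: F3H1 had the order of libraries seen in the chalcone synthases, and F3H2 was highest in library 1 of each group. F3H1 made up 46.1% ± 5.17 of the summed level in control and 45.0% ± 5.42 in cold (SD, n = 3 each), which differ by less than the spread.

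F3'H, which adds the hydroxyl group of cyanidin and quercetin type compounds, had the highest mean level of the steps in both conditions. Nearly all of it came from VIT_217s0000g07200, at 95.5, 103.9 and 87.3 FPKM in control and 50.3, 51.4 and 55.9 FPKM in cold. The groups were far apart relative to their spread, and the log2 change was -0.85 (SE 0.09, limma-trend, adjusted p = 0.0012). The neighbouring VIT_217s0000g07210 measured 2.22, 2.29 and 2.19 FPKM in control and 1.29, 1.17 and 1.47 FPKM in cold, a log2 change of -0.49 (SE 0.12, limma-trend, adjusted p = 0.0218). That call was lost without control library 2 or 3 or cold library 1 or 2 (limma-trend, adjusted p from 0.0618 to 0.0769). It was also lost with library number as a block (limma-trend, adjusted p = 0.0767). The minor copy kept a nearly fixed share of the pair, from 2.16% to 2.44% in control libraries and from 2.22% to 2.57% in cold libraries. How reads that fit both genes were counted is not stated, so the level and call of the minor copy alone are uncertain.

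F3'5'H, which leads to delphinidin type pigments, is a tandem cluster in grape, and the 14 listed genes carry the fields of chromosome 6 and scaffold 0009. Of these, 7 had no read in any library and 7 had reads. A count of 0 in a library still allows an expected count of up to about 3 reads, at 95% confidence. Only 3 genes passed the filter, all through their control level, and these held 95.6% of the cluster's control reads. Summed over the cluster, the level was 12.1, 21.9 and 12.4 FPKM in control and 0.469, 0.133 and 1.63 FPKM in cold. The groups were apart, and cold library 3 was the highest of the cold ones. The cold mean was 4.82% of the control mean, the lowest of the 11 steps. The mean log2 level, with no pseudocount, differed by -4.99 between the groups, by -5.89 without cold library 3 and by -4.08 without cold library 2, so the size of the fall is loosely fixed.

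The 3 tested F3'5'H genes shared this pattern. VIT_206s0009g03010, the most abundant, had 130, 222 and 141 reads in control and 5, 1 and 16 reads in cold, which is 6.05, 10.5 and 6.60 FPKM against 0.207, 0.0398 and 0.585 FPKM. Its log2 change was -2.76 (SE 0.24, limma-trend, adjusted p = 0.00067), and 39 of the 17155 tested genes had a change at least as low. VIT_206s0009g02920 had 81, 143 and 95 reads in control and 6, 0 and 19 in cold, a log2 change of -1.97 (SE 0.24, limma-trend, adjusted p = 0.0019). VIT_206s0009g02830 had 44, 79 and 32 reads in control and 0, 1 and 10 in cold, a log2 change of -1.83 (SE 0.30, limma-trend, adjusted p = 0.0048). Each of these was highest in control library 2 and in cold library 3. The log2(FPKM + 1) scale understates changes this low. Relative to the library totals implied by FPKM, the pooled control libraries held 26.8 times (95% interval 17.5 to 43.2), 15.3 times (10.2 to 24.0) and 16.9 times (9.17 to 34.5) as many reads as the pooled cold libraries. These exact intervals cover counting error only.

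Of the other 4 F3'5'H genes with reads, VIT_206s0009g02840 had 5, 25 and 6 reads in control and 1, 0 and 0 in cold, with its peak again in control library 2. The rest had 5 reads or fewer in all libraries together. The listed F3'5'H identifiers span a stretch of numbering with 18 other rows between them, of which 2 had reads. Only 1 of these was tested, VIT_206s0009g03070, which the files do not name, and it fell from 1.98 to 0.856 FPKM (limma-trend, adjusted p = 0.0271). The ratio of summed F3'5'H to summed F3'H level, which sets both B-ring routes side by side, was 0.123, 0.206 and 0.138 in control libraries and 0.00909, 0.00253 and 0.0284 in cold libraries. Members of the cluster can be close copies, and how reads that fit several copies were counted is not stated. The split of reads among them is therefore uncertain, and their sum may be too low.

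**Figure D2:**
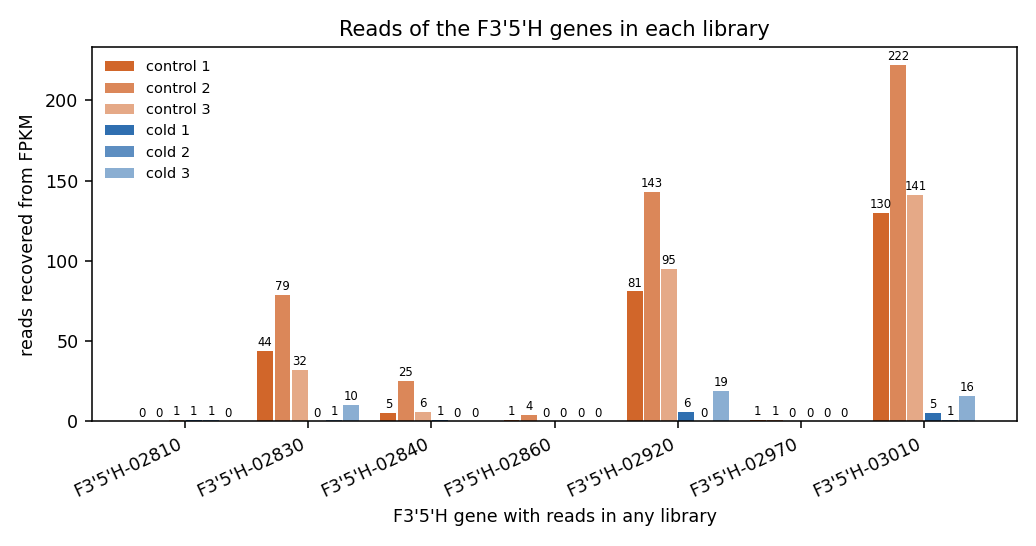
Whole reads recovered from the FPKM values for the 7 F3'5'H genes with reads, one bar per library with the count above it (orange control, blue cold). Control library 2 is the highest bar of VIT_206s0009g02830, VIT_206s0009g02920 and VIT_206s0009g03010, whose cold bars reach at most 19 reads.

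Flavonol synthase was the only step with genes called in opposite directions. VIT_218s0001g03470, the main flavonol synthase gene of warm leaves, fell from 58.3, 60.2 and 57.7 to 14.3, 10.8 and 13.5 FPKM. The control values lay within 1.04-fold of each other and far above the cold values. Its log2 change was -2.12 (SE 0.11, limma-trend, adjusted p = 0.00015), and 92 tested genes had a change at least as low. Its neighbour VIT_218s0001g03430 rose from 5.71, 4.38 and 2.66 to 8.96, 7.82 and 15.8 FPKM, a log2 change of 1.16 (SE 0.31, limma-trend, adjusted p = 0.0275). The groups did not overlap, but the cold values spread 2.02-fold. The call was lost without control library 2 or 3 or cold library 1 or 3 (limma-trend, adjusted p from 0.0588 to 0.0764). It was also lost with library number as a block (limma-trend, adjusted p = 0.0791).

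The remaining flavonol synthase gene, VIT_213s0047g00210, was near silence in warm leaves. It had 31, 3 and 4 reads in control and 68, 106 and 165 reads in cold, which is 1.03, 0.101 and 0.134 FPKM against 2.01, 3.03 and 4.32 FPKM. Control library 1 stood apart from the other controls but stayed below each cold library. The log2 change was 1.56 (SE 0.31, limma-trend, adjusted p = 0.0107), and 1.84 without control library 1 (adjusted p = 0.0025). The log2(FPKM + 1) scale understates this change too: it was 3.03 with a pseudocount of 0.1 and 3.51 with limma-voom on the recovered reads. The gene passed the filter through its cold level.

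The make-up of the flavonol synthase step differed between the groups without overlap. Its summed level was 63.4 ± 2.55 FPKM in control and 26.8 ± 6.15 FPKM in cold (SD, n = 3 each). VIT_218s0001g03470 supplied 92.7% ± 2.90 of the sum in control and 48.9% ± 8.23 in cold, and VIT_218s0001g03430 supplied 6.65% ± 2.19 in control and 39.5% ± 6.42 in cold (SD, n = 3 each). The ratio of the first to the second was 10.2, 13.8 and 21.7 in control libraries and 1.60, 1.38 and 0.857 in cold libraries. In cold library 3 the order of the pair was turned, and in the other 5 libraries VIT_218s0001g03470 was the higher. The groups did not overlap, and the two-sided exact permutation p for the log2 ratio was 0.1, the smallest that 3 libraries against 3 can give. This pair of genes was set in ratio after their values had been seen.

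**Figure D3:**
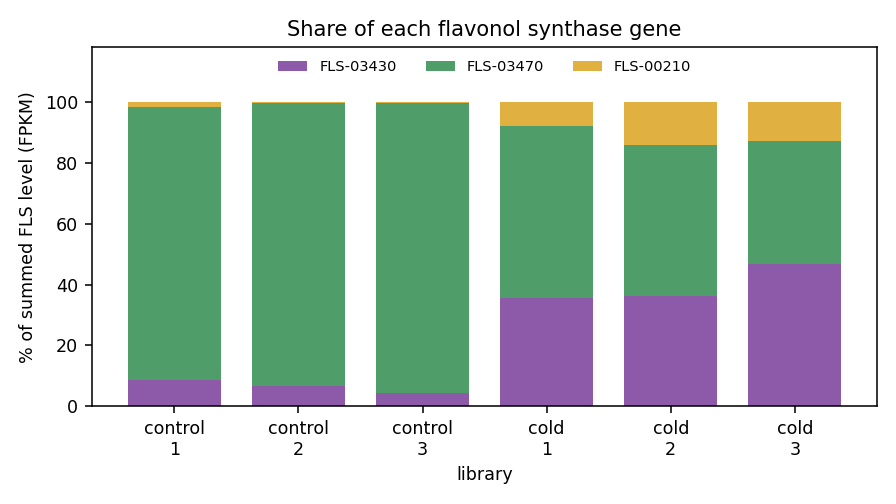
Share of the summed flavonol synthase level (FPKM) that each of the 3 genes supplied in each library, in percent. VIT_218s0001g03470 fills 89.6% to 95.4% of each control bar and 40.2% to 56.6% of each cold bar.

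DFR, the entry to leucoanthocyanidins, was not called. DFR (VIT_218s0001g12800) measured 14.1, 8.18 and 6.48 FPKM in control and 8.05, 7.52 and 11.7 FPKM in cold. The groups overlapped, with control library 1 above every cold library and control library 3 below each of them. The log2 change was -0.03 (95% interval -0.70 to 0.64; limma-trend, adjusted p = 0.946). Without control library 1 it was 0.26 (limma-trend, adjusted p = 0.328). The interval reaches past the change of -0.61 of the chalcone isomerase gene that was called, so the data do not show that DFR was steady. The ratio of summed flavonol synthase to DFR level, where both enzymes use dihydroflavonols, was 4.61, 7.90 and 9.33 in control libraries and 3.14, 2.87 and 2.88 in cold libraries, with the nearest values in control library 1 and cold library 1.

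LDOX, which oxidizes leucoanthocyanidins to anthocyanidins, fell strongly. LDOX (VIT_202s0025g04720) went from 97.6, 85.2 and 54.6 to 11.5, 11.5 and 18.0 FPKM, so that the cold mean was 17.3% of the control mean. The lowest control library was 3.03 times the highest cold library. Its log2 change was -2.44 (SE 0.26, limma-trend, adjusted p = 0.0012), and 56 tested genes had a change at least as low. The ratio of LDOX to DFR was 6.92, 10.4 and 8.43 in control libraries and 1.43, 1.53 and 1.54 in cold libraries. The cold ratios lay close together although DFR and LDOX themselves varied 1.55-fold and 1.57-fold among the cold libraries. The groups did not overlap (two-sided exact permutation p = 0.1, the smallest possible here, on a ratio chosen after the values had been seen).

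UFGT, which attaches glucose to anthocyanidins and so makes stable anthocyanins, fell strongly as well. UFGT (VIT_216s0039g02230) went from 29.6, 36.9 and 25.8 to 3.28, 2.68 and 4.38 FPKM, a cold mean of 11.2% of the control mean. The groups were widely apart. The log2 change was -2.84 (SE 0.18, limma-trend, adjusted p = 0.00026), and 33 of the 17155 tested genes had a change at least as low. The ratio of UFGT to DFR was 2.10, 4.51 and 3.98 in control libraries and 0.407, 0.357 and 0.376 in cold libraries (two-sided exact permutation p = 0.1, the smallest possible here, chosen after the values had been seen).

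**Figure D4:**
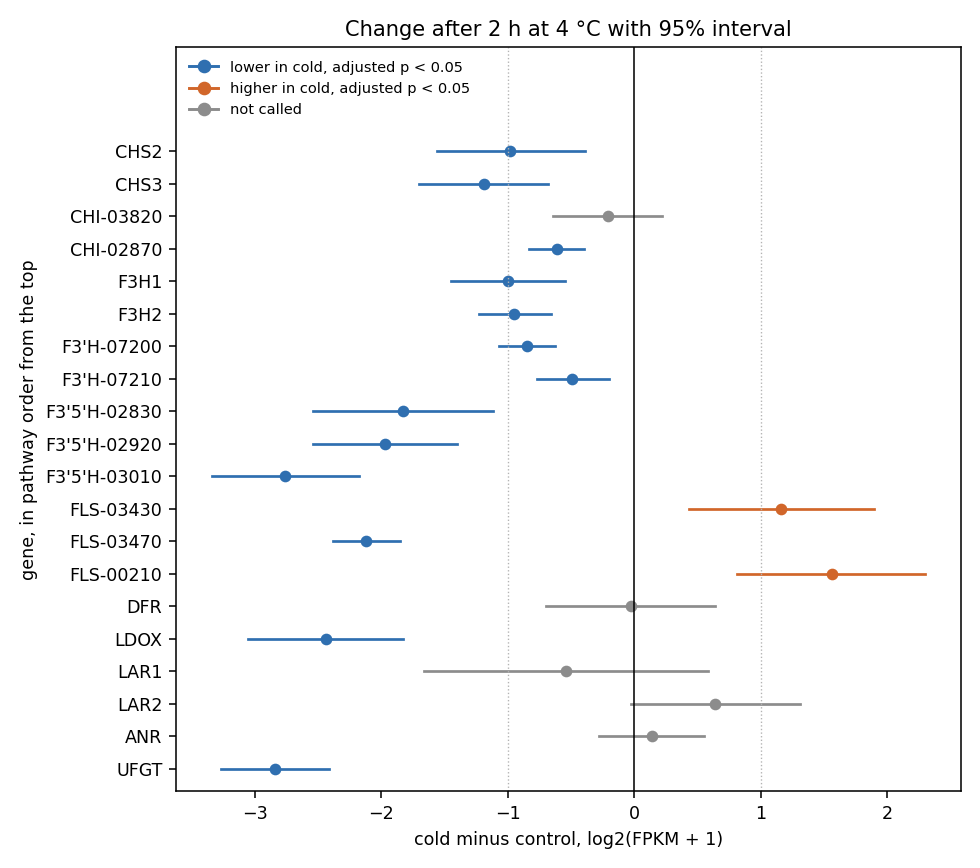
Change of each tested gene between cold and control on the log2(FPKM + 1) scale, with its 95% interval from limma-trend, in pathway order from the top; blue marks genes called lower, orange genes called higher and grey genes not called, and dotted lines stand at 2-fold. The grey intervals of DFR, LAR1, LAR2 and ANR include 0, while those of LDOX and UFGT lie wholly below -1.

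The reductase genes that make catechins (LAR1 and LAR2) and epicatechins (ANR) were not called, though LDOX, on the way to epicatechins, was called lower. LAR1 (VIT_201s0011g02960) measured 23.2, 6.37 and 6.89 FPKM in control and 5.60, 5.72 and 9.31 FPKM in cold. Control library 1 was 3.65 times the lowest control library, and the log2 change of -0.54 (95% interval -1.66 to 0.58; limma-trend, adjusted p = 0.406) rested on it. Without control library 1 the change was 0.01 (limma-trend, adjusted p = 0.963). LAR2 (VIT_217s0000g04150) measured 8.03, 3.72 and 3.92 FPKM in control and 7.70, 6.85 and 10.6 FPKM in cold, with control library 1 inside the range of the cold libraries. Its log2 change was 0.64 (95% interval -0.03 to 1.31; limma-trend, adjusted p = 0.123), and 0.94 without control library 1, which was called (adjusted p = 0.0072).

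The order of the LAR genes was turned between the groups, though neither gene was called and the turn itself was not tested. LAR1 was 2.89, 1.71 and 1.76 times LAR2 in control libraries and 0.727, 0.834 and 0.880 times LAR2 in cold libraries, without overlap. LAR1 thus supplied 67.1% ± 6.29 of the summed LAR level in control and 44.8% ± 2.42 in cold (SD, n = 3 each). ANR (VIT_200s0361g00040), which makes epicatechin, was low throughout, at 3.04, 2.63 and 2.23 FPKM in control and 2.57, 2.56 and 3.97 FPKM in cold. The groups overlapped and the log2 change of 0.14 (95% interval -0.28 to 0.55) was not called (limma-trend, adjusted p = 0.572). The ratio of summed LAR to ANR level was 10.3 in control library 1, 3.84 and 4.86 in control libraries 2 and 3, and between 4.91 and 5.19 in the cold libraries, so it overlapped too. The log2 difference of this ratio between cold and control was -0.20, and 0.22 without control library 1. That of the summed LAR level was -0.01, and 0.52 without control library 1.

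The steps can be put in rough order by level, since FPKM is per length. The chalcone synthase sum lacks a listed gene. How reads that fit several close copies were counted is not stated, so sums over such copies may be too low. In control the summed levels were 97.8 ± 8.33 FPKM for F3'H, 87.0 ± 9.36 for F3H, 79.1 ± 22.1 for LDOX, 74.2 ± 10.2 for chalcone isomerase, 63.4 ± 2.55 for flavonol synthase and 57.6 ± 11.8 for the 2 chalcone synthase genes (SD, n = 3 each). Neighbours in this order overlapped in their libraries, except chalcone isomerase and flavonol synthase. Lower down came UFGT at 30.8 ± 5.62, LAR at 17.4 ± 12.0, F3'5'H at 15.5 ± 5.59, DFR at 9.59 ± 4.00 and ANR at 2.63 ± 0.407 FPKM (SD, n = 3 each). Here the gaps below chalcone synthase and below DFR were free of overlap, and the other neighbours overlapped. Without control library 1 the LAR mean was 10.5 FPKM and that of F3'5'H 17.1 FPKM, which turns their order.

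In cold the order of the means differed. F3'H at 53.9 ± 3.08 FPKM and chalcone isomerase at 51.8 ± 1.30 FPKM led, followed by F3H at 43.5 ± 5.50, chalcone synthase at 27.6 ± 8.84 and flavonol synthase at 26.8 ± 6.15 FPKM (SD, n = 3 each). LAR, at 15.3 ± 4.03 FPKM, then stood beside LDOX at 13.7 ± 3.75 and above DFR at 9.08 ± 2.25 FPKM. UFGT at 3.45 ± 0.861 FPKM stood beside ANR at 3.03 ± 0.812 FPKM, and F3'5'H came last at 0.745 ± 0.786 FPKM (SD, n = 3 each). LDOX thus stood below 2 steps in control and below 6 in cold. The libraries of neighbouring steps did not overlap below chalcone isomerase, flavonol synthase, DFR and ANR, and overlapped elsewhere in the order. The summed level in cold was 47.9% of control for chalcone synthase, 50.0% for F3H, 55.1% for F3'H and 42.3% for flavonol synthase.

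**Figure D5:**
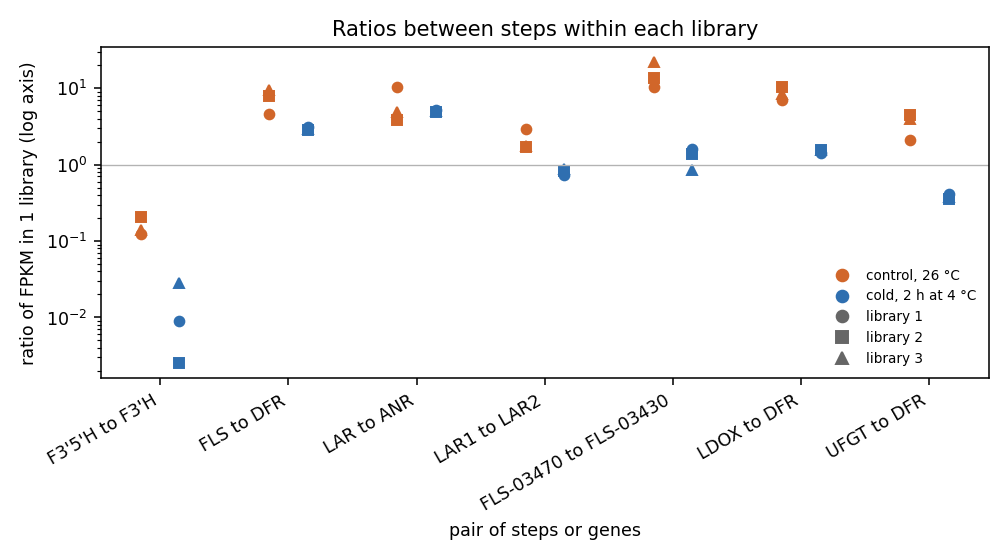
Ratios of FPKM between steps or single genes within each library, on a log axis; orange points are control and blue points cold libraries, and symbols give the library number. The 3 cold points of LDOX to DFR (1.43 to 1.54) and of UFGT to DFR (0.357 to 0.407) nearly coincide and lie below all control points, while the cold points of F3'5'H to F3'H are spread widely.

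The libraries ordered the members in a similar way within each group. Cold library 3 was the highest cold library for 16 of the 20 tested members, beside 47.2% of all tested genes, and cold library 2 was the lowest for 14, beside 33.5%. Control library 3 was the lowest control library for 14 members and the highest for 0, beside 35.8% and 26.4% of all tested genes. The highest control library was library 1 for 10 members, among them both LAR genes, DFR, ANR and LDOX, and library 2 for the other 10, among them both chalcone synthases, UFGT and the 3 F3'5'H genes. The part of these library differences in the results was not tested.

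Genes beside the members in the numbering were looked at for comparison. Taking the nearest tested gene that is no member on each side of every tested member, within the same scaffold field, gave 32 genes. Of these, 6 were lower, 7 were higher and 19 were not called, beside 13.4% and 21.0% for all tested genes. A single one was lower by at least 2-fold, VIT_217s0000g07190 next to the F3'H pair, which went from 47.0 to 13.7 FPKM (limma-trend, adjusted p = 0.0056) and which the files do not name. The median log2 change of the neighbours was 0.07.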

How the data were processed

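Leaf RNA of 6 libraries was analysed, 3 control and 3 cold. The authors deposited FPKM values in 1 table of 31845 genes; per the submitters' processing notes the tools were STAR, HTSeq, DESeq2, cutadapt and FastQC, without versions or roles. Genome build, annotation, counting mode and strandedness: not given in the sources used here. Each column is 1 library, and 0 columns were left unused.

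Within a gene the FPKM values are whole multiples of a step per library, from which whole reads were recovered for 25054 of 25054 genes above 0 (within 0.001 reads, or 0.02 for the few most abundant genes). The recovered reads summed to 99.4% to 99.6% of the implied totals; on simulated reads 97.4% of genes came out exact, and 99.2% of those with 10 or more reads in each library. They served for depth, read counts, the floor of 3 reads and limma-voom.

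The 17155 genes that averaged 1 FPKM or more were fitted with limma-trend on log2(FPKM + 1), two-sided, with Benjamini-Hochberg adjustment over all of them and a threshold of 0.05. A simulation of cold against control (17150 genes) held 50 altered genes at each size of effect. The fit called 31 of them at 1.5-fold, 44 at 2-fold, 49 at 4-fold and 48 at 8-fold. It also called 12 of the 16955 genes left unaltered. The same dispersion was set for every simulated gene and was not estimated from these data. These rates therefore may not hold for genes as variable as VIT_213s0047g00210 (10.2-fold among controls), LAR1 (SE 0.47, 3.65-fold) or DFR (SE 0.28, 2.18-fold). Sums over a step and ratios of sums were not tested. Every tested member is given with its values. Lists of other pathway genes and of leaf markers, fixed by annotated name, had no members, because the files hold no names, and were not used. The members and lists were chosen with earlier results of these data known. Alternatives covered the pseudocount, filter, scaling, replicate block, limma-voom and each library left out. Software was limma 3.58.1 in R 4.3.3, and SciPy 1.17.1, pandas 2.3.3, matplotlib 3.10.9 and numpy 2.4.6 in Python 3.11.15.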

Additional observations from a re-analysis of the deposited data

How the results depend on the processing

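Of the 15 called members, 12 kept their call in every setting that tested them and 0 reversed; CHS2, VIT_217s0000g07210 and VIT_218s0001g03430 lost theirs in at least 1. With each library left out in turn there were 11 to 13 members lower and 1 to 3 higher. Of all 17155 tested genes, 1425 to 2746 were lower and 2253 to 4180 higher in these settings. At 2-fold or more, 7 to 10 members were lower and 1 to 2 higher, beside 450 to 588 and 1011 to 1251 of all tested genes. A filter at 5 FPKM leaves 14 members. Of these, 1 was higher, also by at least 2-fold, and 4 were lower by at least 2-fold. Among all 12090 genes at that filter, 684 were higher and 386 lower by at least 2-fold. Under the replicate block 11 members were lower and 1 was higher, by at least 2-fold. Of all 17155 tested genes, 1627 were lower and 2480 higher under this block, 1083 of them higher by at least 2-fold. The labels tie libraries of the same number by that number alone. Their deviations from the group means correlated at -0.26, -0.13 and -0.28. Of the controls, 0 of 3 had its highest correlation with the same-numbered cold library. With 3 libraries a group, these values cannot decide whether such libraries share plants or a batch. With a library left out, log2 changes of uncalled members ran from -0.25 to 0.26 for DFR (above 0 without control library 1, cold library 1 or cold library 2), from -0.84 to 0.01 for LAR1 (0.01 without control library 1) and from -0.02 to 0.22 for ANR (-0.02 without cold library 3, and -0.01 under quantile normalization); the cause was not tested. Summed steps and ratios moved by less than the spread between libraries in each setting. Leaving out 1 of 3 libraries could not give another outcome, so that part tells nothing about stability. Without control library 1 the log2 difference between cold and control went from -0.03 to 0.29 for DFR and from -0.01 to 0.52 for summed LAR. For LAR to ANR it went from -0.20 to 0.22. Steps whose groups did not overlap stayed lower in cold in every setting. Ratios within a library do not change with scaling. Low reads limit F3'5'H in cold, where the whole cluster held 61 reads over 3 libraries.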
